A study of Homo sapiens with 35 samples.

Results

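The 10 human Toll-like receptor genes, TLR1 to TLR10, were examined in a map of open chromatin from blood progenitors grown out of human embryonic stem cells. Peaks were taken where the summit, the position of highest signal, lay inside a receptor gene or within 50 kb of it. This gave 191 distinct peaks of the 308732 in the deposited list, around 10 of 19974 protein-coding genes. The assay was ATAC-seq: an enzyme, Tn5 transposase, cuts DNA where it is accessible and leaves sequencing adapters at the cut. The labels describe 35 libraries, all of hematopoietic progenitors obtained by differentiating the established stem cell line H1. Of these, 12 came from doxycycline-treated cultures of a line called doxee17, 11 from untreated doxee17 cultures and 12 from untreated H1 cultures, on 6 days from day 10 to day 20. Doxycycline switches on an added copy of MYC, whose product is a growth-promoting transcription factor. All doxee17 libraries were batch 1 and all H1 libraries batch 2. The labels do not say whether doxee17 is 1 clone, and the design text counts 44 libraries.

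The deposited values are a single pooled peak list, with no value for any library. No comparison by treatment, day or line could therefore be made at the receptor genes, and no replicate error can be given. Every fold below is the authors' fold enrichment of a peak, the signal at its summit over a background that is constant across the genome. The 95% intervals beside folds are exact Poisson intervals on the pooled pileup and cover counting error only. A weak peak in such a pool can come from few open cells or from weak opening in many, and these cannot be told apart. Coordinates are on GRCh38.

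Toll-like receptors are sensors of the innate immune system that bind molecules typical of microbes through leucine-rich repeats and signal through a cytoplasmic TIR domain. TLR1, TLR2, TLR4, TLR5, TLR6 and TLR10 act at the cell surface, mostly on lipids and proteins of bacteria, while TLR3, TLR7, TLR8 and TLR9 sit in endosomes and bind nucleic acids. Their signals run through the adaptors MYD88 and TICAM1 to NF-kB and interferon regulatory factors. Mature monocytes, neutrophils, dendritic cells and B cells use different subsets of them, and blood stem and progenitor cells carry some as well.

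An annotated end lay within 1 kb of a summit in all 10 receptor genes and in 83% of protein-coding genes. The strength of these end peaks differed widely within the family. TLR5 was highest, at 110.3-fold, and TLR8 lowest, at 4.94-fold. The median over the 10 genes was 33.2-fold, against 43.5-fold over all protein-coding genes, where a gene without a summit counted as 0. Of the 10, 3 lay above that median and 7 below it, and all 10 lay between the quartiles of coding genes, 3.64-fold and 112-fold.

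The 3 genes above the median encode surface receptors. TLR5, the receptor for bacterial flagellin (chromosome 1, 223109404 to 223143248), had a peak of 110.3-fold (95% interval 108 to 112) and 2485 bp with its summit 50 bases inside the gene's upper end, its transcript start. That value lay above 74.5% of coding genes. TLR4, which senses lipopolysaccharide of Gram-negative bacteria (chromosome 9, 117704403 to 117724735), reached 71.2-fold (69.5 to 72.9) in a 2568 bp peak whose summit lay 82 bases before the start. TLR6, a partner of TLR2 for diacylated lipopeptides (chromosome 4, 38822897 to 38868390), had 53.3-fold (51.8 to 54.8) at its upper end. That summit lay 588 bases inside TLR6 but only 4 bases from the end of the neighbouring gene FAM114A1, and the microRNA gene MIR574 lies under the same peak.

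RefSeq gives TLR6 a transcript start inside the annotated gene, and a second peak lay over it. This peak, of 41.9-fold (40.6 to 43.3) and 2673 bp, covered the promoter, and its summit lay 1010 bases before the start, just outside the 1 kb window. When a summit counted only for the gene whose end was closest, TLR6 had no end summit, and the family count was 9 of 10. The share of coding genes under that rule is not given here, so this count has no background. Their median end peak was lower under it, 24.8-fold.

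The next 4 genes lay between 17.6-fold and 36.9-fold. TLR2, the shared chain of the lipopeptide receptors (chromosome 4, 153684280 to 153710637), had 36.9-fold (35.6 to 38.1) with the summit 56 bases before its start. TLR9, the endosomal receptor for unmethylated CpG DNA (chromosome 3, 52221080 to 52225645), had 34.9-fold (33.7 to 36.1) with the summit 109 bases before its start. The intervals of TLR2 and TLR9 overlapped, and the difference between them was not tested. TLR1, a partner of TLR2 for triacylated lipopeptides (chromosome 4, 38787569 to 38805644), had 31.5-fold (30.4 to 32.7), 63 bases outside its upper end. TLR10, a surface receptor whose ligands are less settled (chromosome 4, 38772238 to 38782990), had 17.6-fold (16.7 to 18.4), 60 bases outside its upper end.

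The 3 lowest genes encode endosomal receptors for RNA. TLR3, the sensor of double-stranded RNA (chromosome 4, 186069156 to 186088073), had only a 6.22-fold peak (5.73 to 6.74) with its summit 934 bases before the start. TLR7, a sensor of single-stranded RNA (chromosome X, 12867072 to 12890361), had 5.35-fold (4.90 to 5.84) beyond its upper end, 991 bases away. At its lower end TLR7 had a peak of 1.99-fold with its summit 34 bases outside the gene, the lowest of the 11 peaks within 50 kb. TLR8, a related sensor of single-stranded RNA (chromosome X, 12906620 to 12923169), had 4.94-fold (4.50 to 5.41) with the summit 41 bases before its start. The intervals of TLR3 and TLR7 overlapped, as did those of TLR7 and TLR8. The TLR3 and TLR7 summits were also the members closest to the 1 kb limit on its inner side. On the outer side lay a 38.3-fold summit 1357 bases from the lower end of TLR1. With a 0.5 kb window TLR3 and TLR6 had no end summit, and TLR7 kept only the 1.99-fold peak.

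**Figure D1:**
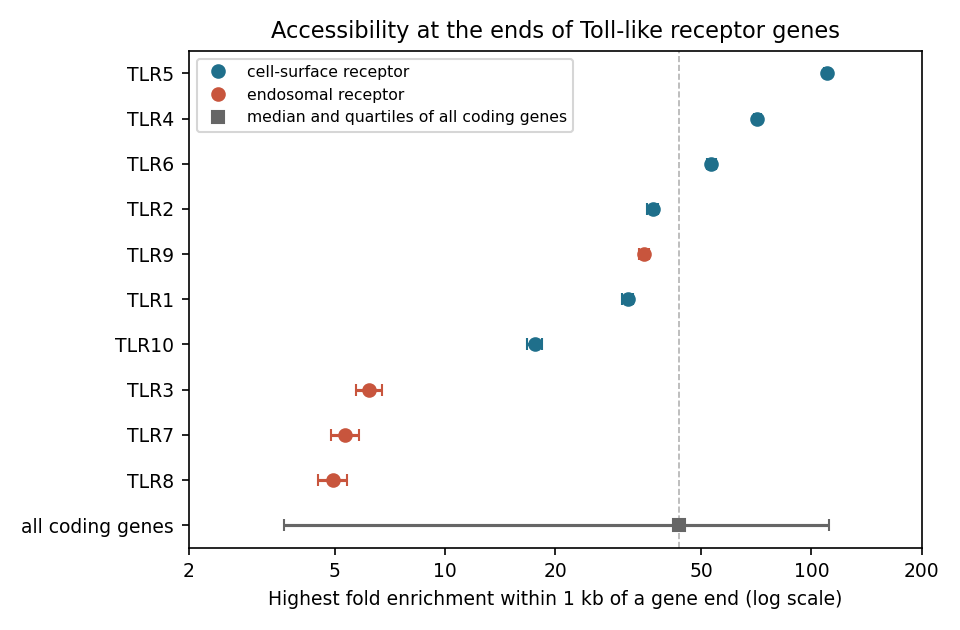
Highest fold enrichment of a peak with its summit within 1 kb of an end of each receptor gene (log axis); bars on the 10 genes are 95% Poisson intervals, and the grey square and bar give the median and quartiles of all coding genes. The 6 surface receptors lie between 17.6-fold and 110.3-fold, and of the 4 endosomal receptors only TLR9 reaches that range. The TLR6 value is that of the peak shared with FAM114A1.

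Grouped by where the receptors act, the 6 surface receptor genes had a median end peak of 45.1-fold (17.6 to 110.3) and the 4 endosomal ones 5.79-fold (4.94 to 34.9). The surface median rests partly on the 53.3-fold of TLR6, from the peak shared with FAM114A1. When a summit counted only for the gene with the closest end, TLR6 had 0, which lowers the surface median and range. That 0 concerns the annotated ends, and the 41.9-fold peak over the internal TLR6 start does not enter it. TLR9 was the exception among the endosomal genes. This grouping was described after the values were seen and was not tested. TLR7 and TLR8 are also the members on the X chromosome, of which H1 cells carry 1 copy. X-linked coding genes had a median end peak of 10.9-fold, against 46.9-fold for autosomal coding genes. TLR7 and TLR8 lay above 43.0% and 42.3% of X-linked coding genes, but above only 28.0% and 27.3% of all coding genes. Over all peaks, the median was 3.61-fold on the X chromosome and 3.46-fold on autosomes. For these 2 genes the chromosome and the receptor class cannot be told apart.

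Transcript starts and promoters were taken from a RefSeq promoter table for 7 genes, and those of TLR1, TLR7 and TLR10 were not analysed here. A peak covered part of the promoter, from 250 bases before to 50 after the start, in 6 of these 7, against 81.4% of 22132 promoters of coding genes. TLR3 was the one without. A summit lay within 1 kb of the start in 6 of the 7. The share of all coding promoters with such a summit is not given here, so this count has no background. By fold within 1 kb of the start, the median was 34.9-fold over the 7 genes and 39.0-fold over all promoters. In 4 of the 6 (TLR2, TLR4, TLR5 and TLR8) the summit lay within 100 bases, as it did in 40.5% of all promoters with a summit. The promoters differed in CpG content. TLR2 and TLR5 had 26 and 19 CpG dinucleotides in the 250 bases before the start. TLR4 had 5, TLR6 and TLR8 had 4 each, TLR3 had 3 and TLR9 had none, against a median of 16 over all coding promoters.

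Of the 5 CpG-poor receptor promoters, 3 had peaks above the upper quartile of promoters of that kind. Among the 5612 coding promoters with 5 or fewer CpG dinucleotides, 45.2% had a peak, the median fold was 0 and the upper quartile 10.7-fold. TLR4 (71.2-fold) lay above 93.8% of them. TLR6 (41.9-fold) lay above 89.1% and TLR9 (34.9-fold) above 87.0%. TLR8 (4.94-fold) lay above 67.6%, and TLR3 had no peak there. TLR5 lay near the middle of promoters with 17 to 25 CpG dinucleotides (110.3-fold, against a median of 99.1-fold), and TLR2 lay below the lower quartile of those with 26 or more (36.9-fold, against a median of 89.2-fold and a lower quartile of 41.2-fold).

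**Figure D2:**
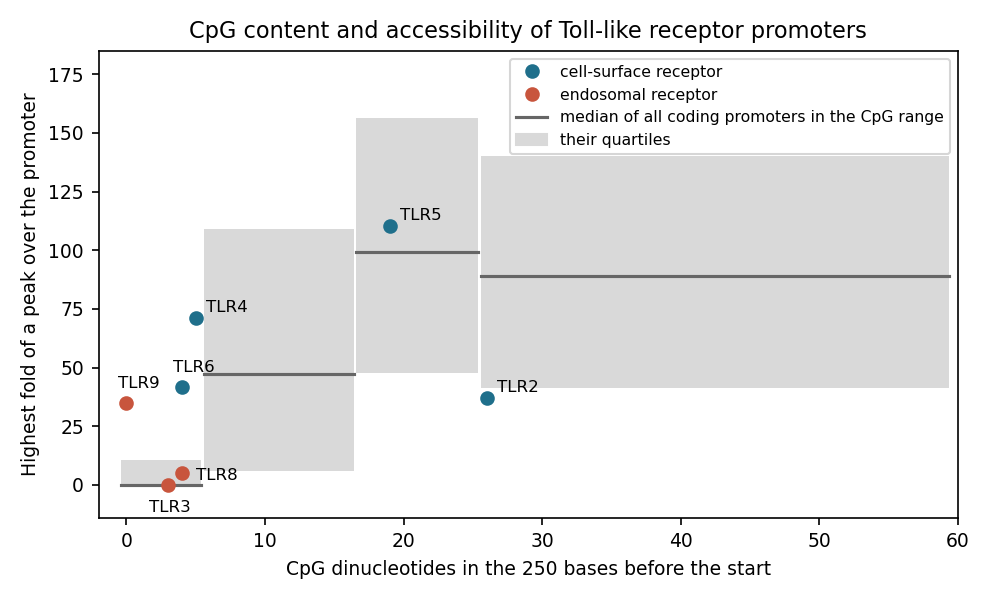
Fold of the highest peak over each receptor promoter against the number of CpG dinucleotides in the 250 bases before the start; grey lines and boxes are the median and quartiles of all coding promoters in 4 ranges of CpG count. TLR4, TLR6 and TLR9 stand above the upper quartile of CpG-poor promoters (10.7-fold), and TLR2 stands below the lower quartile of its range.

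Sequences of 4 promoters are shown because they span these cases: TLR4 and TLR9, open with few or no CpG, TLR2, CpG-rich, and TLR8, AT-rich and weak. Each line gives the 250 bases before the start from RefSeq (GRCh38.p14), 5′ to 3′ on the gene's strand, with matches to the searched motifs in capitals. TLR4 is chr9:117704153-117704402 on the plus strand, TLR9 is chr3:52225646-52225895 on the minus strand, TLR2 is chr4:153684030-153684279 on the plus strand and TLR8 is chrX:12906370-12906619 on the plus strand.
TLR4: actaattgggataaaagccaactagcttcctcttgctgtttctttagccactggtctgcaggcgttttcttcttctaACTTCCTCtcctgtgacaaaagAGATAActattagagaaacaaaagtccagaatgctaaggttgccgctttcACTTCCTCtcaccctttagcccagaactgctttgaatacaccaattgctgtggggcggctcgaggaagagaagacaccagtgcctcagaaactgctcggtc
TLR9: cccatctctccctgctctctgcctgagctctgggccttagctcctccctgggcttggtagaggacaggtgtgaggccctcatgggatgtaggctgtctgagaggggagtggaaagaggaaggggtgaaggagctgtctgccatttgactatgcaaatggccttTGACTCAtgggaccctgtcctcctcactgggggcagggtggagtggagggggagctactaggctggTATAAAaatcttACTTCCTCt
TLR2: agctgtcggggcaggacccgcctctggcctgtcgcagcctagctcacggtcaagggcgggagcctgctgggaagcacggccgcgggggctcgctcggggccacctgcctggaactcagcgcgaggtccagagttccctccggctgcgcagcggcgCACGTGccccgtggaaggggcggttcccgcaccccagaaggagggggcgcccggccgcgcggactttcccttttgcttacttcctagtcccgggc
TLR8: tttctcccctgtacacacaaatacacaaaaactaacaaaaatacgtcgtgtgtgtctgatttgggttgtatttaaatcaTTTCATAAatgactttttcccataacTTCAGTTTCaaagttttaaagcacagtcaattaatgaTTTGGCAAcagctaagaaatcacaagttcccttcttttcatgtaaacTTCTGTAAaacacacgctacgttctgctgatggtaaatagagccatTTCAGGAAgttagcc

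The letters GAGGAAGT, a core bound by the myeloid factor PU.1, were found on either strand in the TLR4 and TLR9 promoters and in none of the other 5. This split depends on the string searched. The shorter AGGAAGT also occurs, on either strand, in the printed TLR2 and TLR8 promoters, and its share over all promoters was not counted. TLR4 held the full GAGGAAGT at 2 places, 173 to 166 and 101 to 94 bases before the start, on the opposite strand (ACTTCCTC). TLR9 held it once, 9 to 2 bases before the start. Of all 22132 coding promoters, 2.22% held GAGGAAGT in the same 250 bases. TLR4 also held the letters AGATAA, bound by factors of the GATA family, which 7.08% of promoters held. TLR9 held an AP-1 match to TGANTCA (5.35% of promoters) and TATAAA (8.996%), whose letters lie 21 to 16 bases before the start. TLR2 held CACGTG, the E-box that MYC and its relatives bind, 95 to 90 bases before the start, and 7.37% of promoters held it. TLR8 held the interferon regulatory factor motif GAAANNGAA once (6.07%) and the C/EBP motif TTNNGNAA at 4 places, a motif that 28.3% of promoters held and that TLR3 and TLR6 each held once. No match was found in the 7 promoters for the NF-kB motif GGGANNTTC (3.43%), the RUNX motif TGTGGT (9.36%) or the CRE motif TGACGTCA (2.02%). A match describes the letters and shows no binding.

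Inside the genes, away from both ends, 37 distinct peaks were found, and each of the 10 genes had at least 1, as 76.5% of coding genes did. TLR5 held 9 such peaks, TLR4 and TLR6 8 each, TLR3 and TLR10 3 each, TLR1 2, and TLR2, TLR7, TLR8 and TLR9 1 each. The median number was 2.5 over the 10 genes and 3 over all coding genes, whose quartiles were 1 and 9. The median fold of the 37 peaks was 4.37-fold, with a range of 1.47 to 41.9-fold. The highest was the TLR6 peak at its internal start. In TLR5, 3 peaks between 28.0-fold and 37.8-fold lay 14.5, 20.2 and 24.5 kb from the lower end. In TLR4, a 29.3-fold peak of 2099 bp (117717811 to 117719909) lay 13.9 kb from the start, and a 30.1-fold peak of 3058 bp covered the upper end of the gene.

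TLR4 was the gene most covered by peaks, with 48.0% of its length, above 87.1% of coding genes. TLR10 (21.9%), TLR5 (21.7%), TLR9 (17.5%), TLR6 (16.4%) and TLR1 (15.3%) also exceeded the median of coding genes, 12.6%. TLR2 (11.1%), TLR3 (9.06%), TLR8 (5.64%) and TLR7 (1.85%) fell short of it. TLR2, although open at its start, had no peak over a run of 20.3 kb inside the gene. TLR7 had none over 15.4 kb. The only peak inside TLR9, which is 4566 bp long, was 1.47-fold (1.24 to 1.74), near the weakest of the whole list (1.32-fold).

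**Figure D3:**
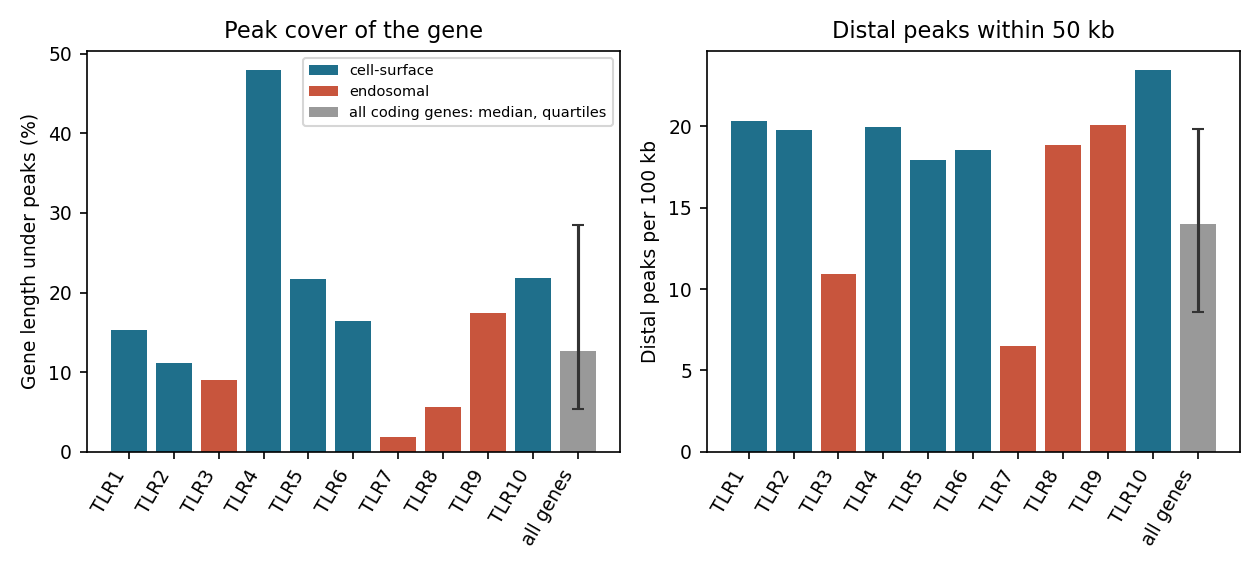
Left, percent of each gene's length under peaks; right, density of distal peaks (number per 100 kb) in the gene and 50 kb to either side; the grey bar is the median over all coding genes, with quartiles. TLR4 has the highest cover (48.0%) and TLR7 the lowest value in both (1.85% and 6.49 per 100 kb).

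Distal peaks, with a summit over 1 kb from every coding gene end, had a median density of 19.3 per 100 kb around the family, against 14.02 over all coding genes. Of the 10 genes, 8 exceeded that median and 4 (TLR1, TLR4, TLR9 and TLR10) exceeded the upper quartile of 19.8, a mark passed by 25% of coding genes. TLR10 had the most per 100 kb (23.5), and TLR3 (10.9) and TLR7 (6.49) lay below the median. The genes are not independent here: TLR10, TLR1 and TLR6 lie side by side, as do TLR7 and TLR8, and of the 191 peaks 23 were counted for 2 genes and 15 for 3. With each such neighbourhood counted once, the median was 19.8 per 100 kb.

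**Figure D4:**
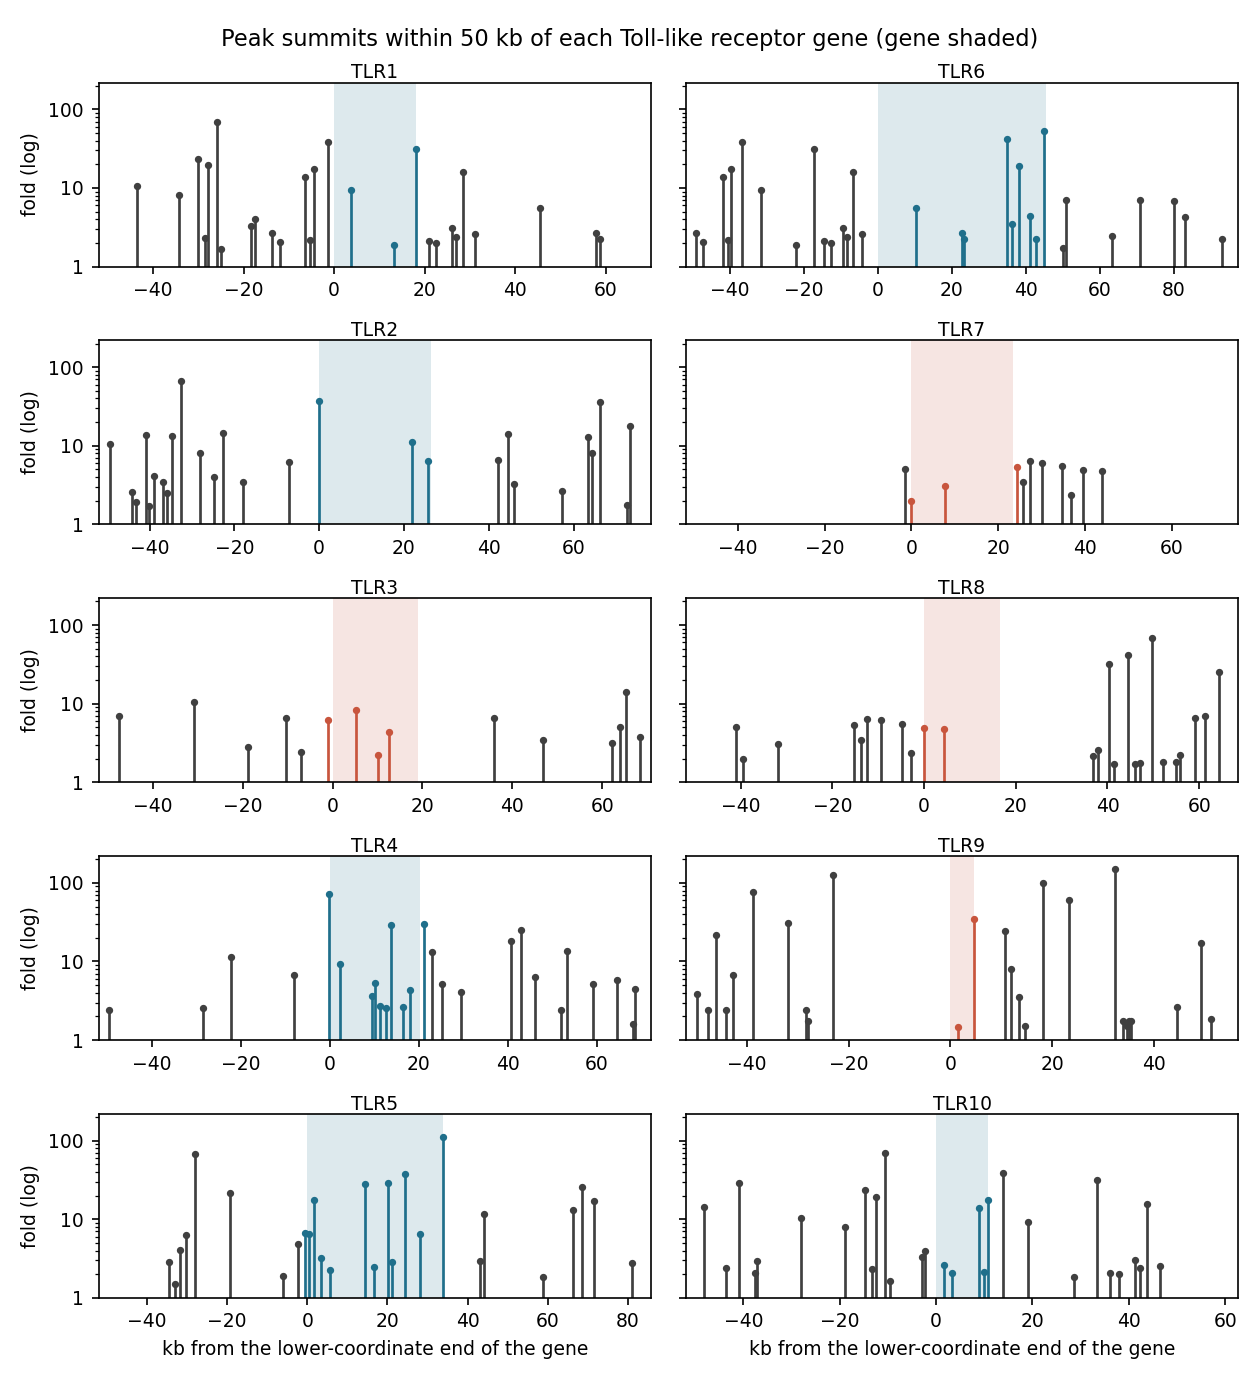
Summits of all peaks within 50 kb of each receptor gene, with distance in kb from the gene's lower-coordinate end and fold on a log axis; the gene is shaded and its own end and body peaks are coloured (blue surface, red endosomal). TLR4, TLR5 and TLR6 carry the most peaks inside the gene, and the strong peaks near TLR8 and TLR9 lie outside.

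The TLR10, TLR1 and TLR6 cluster on chromosome 4 had its highest distal peak outside the 3 genes. It reached 69.8-fold (68.1 to 71.5) at 38761166 to 38762255, 10.5 kb outside the lower end of TLR10 and 25.9 kb from TLR1. Peaks of 23.4-fold and 19.5-fold lay beside it, 14.8 and 12.5 kb from TLR10. Between TLR10 and TLR1 lay a 38.3-fold peak (38785376 to 38786677), which exceeded the end peaks of both genes. The coding parts of TLR1 and TLR6 are similar in sequence, and how reads that fit both were placed is not given in the sources used here.

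TLR2 had a comparable distal peak. It reached 67.7-fold (66.1 to 69.4) over 2351 bp (chromosome 4, 153650947 to 153653297), 32.5 kb before the TLR2 start and 15.1 kb from the nearer end of TMEM131L, which had 109.8-fold at an end. It was thus higher than the peak at the TLR2 start (36.9-fold), and 3 peaks between 13.5-fold and 14.7-fold lay 22.7, 34.6 and 40.7 kb before the start. Beyond the other end, RNF175 overlaps TLR2, and a 36.5-fold peak lay inside RNF175.

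Around TLR5, where no other coding gene lies within 50 kb, a distal peak of 68.4-fold (66.8 to 70.1) lay 27.9 kb outside the lower end (chromosome 1, 223081091 to 223081905), and one of 21.4-fold lay 19.2 kb outside it. TLR4 also has no coding neighbour within 50 kb, and its peaks were lopsided: 12 lay beyond the upper end and 4 before the start. The highest of them, at 24.9-fold (23.9 to 25.9), lay 22.7 kb beyond the upper end. For TLR4 the strongest peak of the neighbourhood was therefore that at its own start. The same held for TLR5. For TLR6 the strongest peak was that at its upper end, shared with FAM114A1 and away from its transcript start. For each of the other 7 a stronger peak lay elsewhere within 50 kb.

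TLR3 had the fewest peaks of the autosomal members, and the fewest strong ones. Of its 15 peaks 2 exceeded 10-fold, and the highest (13.9-fold) lay inside FAM149A, 46.4 kb beyond the upper end. Over all peaks of the list the upper quartile was 8.59-fold. The median of the TLR3 peaks was 5.09-fold, against 3.46-fold over all peaks. TLR7 had 11 peaks, of which none exceeded 6.42-fold. Its neighbour PRPS2, 42.9 kb away, had 18.4-fold at an end. TLR8 shares the weak peaks on its lower side with TLR7, but strong ones stood beyond its upper end. They reached 32.2-fold, 41.8-fold and 68.5-fold (66.8 to 70.1) at 23.8, 28.0 and 33.2 kb from that end. The 41.8-fold and 68.5-fold peaks lay closer to TMSB4X, which encodes the actin-binding protein thymosin beta 4, at 24.0 and 18.8 kb. The 68.5-fold peak was 3505 bp wide (12954487 to 12957991). The density of distal peaks around TLR8 was 18.9 per 100 kb, above 94.9% of X-linked coding genes, and 14 of its 25 peaks lay on this side.

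TLR9 is a short gene with 4 coding neighbours within 50 kb, of which 3 had end peaks above 100-fold. PPM1M had no summit at an end but lay under a 60.4-fold peak of 7279 bp whose summit is farther away. A single peak of 27010 bp and 124-fold (122 to 127), with its summit 18 bases from an end of ALAS1, the first enzyme of heme synthesis, reached just over the lower end of TLR9. On the other side, TWF2 had 101-fold and WDR82 149.8-fold at an end. The TLR9 peak itself was 3993 bp wide and extended across the nearer end of TWF2. Counting any overlap with the end window in place of the summit gave TLR9 the 124-fold peak of ALAS1.

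How the receptors compare with the rest of their pathway was described with 9 lists, holding 77 genes. Of these, 72 had a summit at an end, against 83% of coding genes, and the median was 45.0-fold, with 40 above the median of coding genes. Most lists of signalling genes had higher medians than the receptors. For the 9 transcription factors it was 114-fold, and 7 exceeded the median of coding genes (RELB 209, NFKB2 193 and IRF7 136, of the NF-kB and interferon regulatory factor families). For the 6 inhibitors it was 108-fold, and 5 exceeded it, led by the deubiquitinases CYLD (282) and TNFAIP3 (157) and by NFKBIA (124), which holds NF-kB in the cytoplasm. SIGIRR, a TIR protein that dampens signalling, had 1.98-fold by summit, while a 65.6-fold peak with its summit farther away reached into the window.

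The 15 kinases and ubiquitin ligases had a median of 80.5-fold, and all had an end summit (PELI1 198, TRAF6 124, MAP3K7 116). The 8 trafficking genes had 59.1-fold, among them the chaperone HSP90B1 (247), the endolysosomal transporter SLC15A4 (92.9) and UNC93B1 (72.0), which carries endosomal receptors out of the endoplasmic reticulum. The 5 TIR adaptors had 43.1-fold (TICAM1 63.3, TICAM2 44.5, TIRAP 43.1). MYD88, the adaptor of nearly all Toll-like receptors, had a summit of only 2.73-fold within 1 kb of its ends, but a 230.3-fold peak with its summit farther away reached into that window. CNPY3, a chaperone of the receptors, had 2.58-fold by summit and lay beside a 222-fold peak in the same way.

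Co-receptors and ligand carriers lay below the receptors. Their median was 14.4-fold, and 1 of 7 exceeded the median of coding genes. LY86, the partner of the TLR4 relative CD180, had 45.7-fold. RNF135, a ubiquitin ligase best known from the RIG-I pathway, had 19.97-fold. LY96, which binds lipopolysaccharide beside TLR4, had 15.2-fold, and CD14, which hands it over, had 14.4-fold. CD36 had no summit at an end, although a 19.4-fold peak reached into the window. Induced cytokine genes had a median of 2.73-fold by summit, and none of 10 exceeded the median of coding genes (CXCL8 35.5, CCL4 28.2, CCL3 25.2). This low value depends on the summit rule. TNF and IL1B had no end summit, but peaks of 97.5-fold and 39.9-fold reached into their windows, as did peaks of 70.2-fold at IL10, 25.4-fold at IL12B and 9.998-fold at IFNB1. By any overlap the median of the cytokine genes was 26.8-fold, above the 15.2-fold of the co-receptors, and 2 of 10 exceeded the median of coding genes, 56.1-fold by that measure. Distal peaks were dense around them (22.5 per 100 kb, with 6 of 10 above the upper quartile).

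For other innate sensors the median was 51.3-fold, and 7 of 10 exceeded that of coding genes (NOD1 88.9, CGAS 81.1, IFIH1 73.1) and none at CLEC7A, into whose window a 62.6-fold peak reached. The IL-1 receptor family, which shares the TIR domain, had 29.0-fold (IL1RAP 146, IL18R1 59.8, IL1RL1 37.7, IL1RL2 none). All 7 of its genes exceeded the upper quartile of distal density, but 6 of them lie together on chromosome 2 and share peaks. By any overlap, all 77 pathway genes had a peak in an end window, against 87.6% of coding genes.

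**Figure D5:**
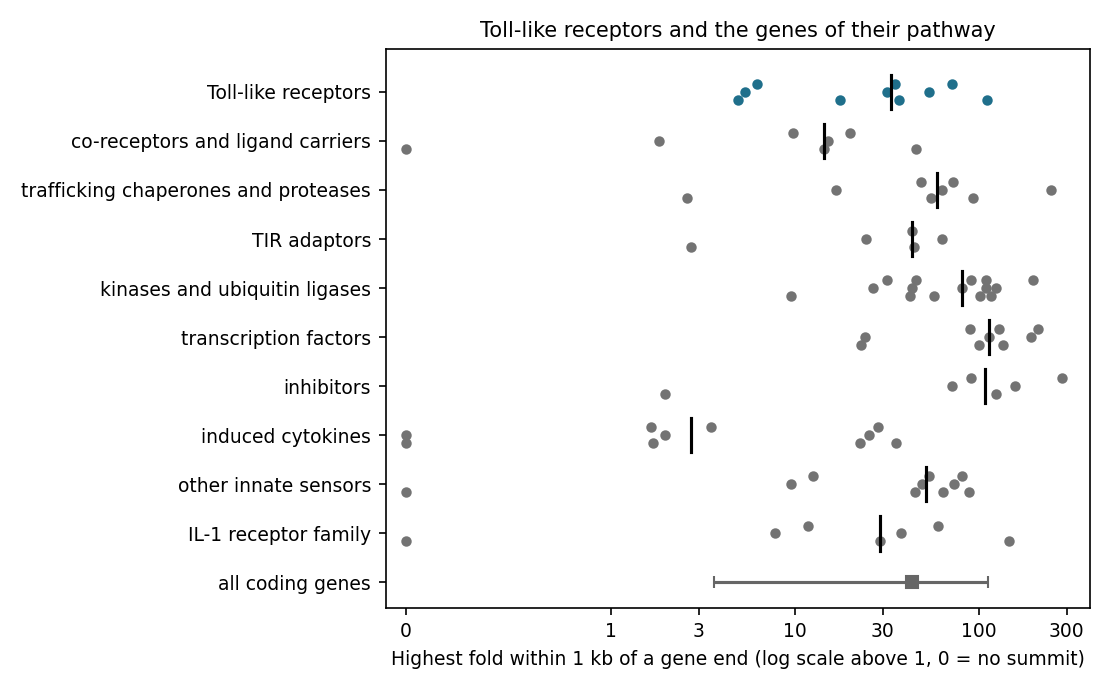
Highest fold within 1 kb of a gene end for the 10 receptors (top) and 9 pathway lists, with each point a gene and the black line the list's median; the bottom row gives the median and quartiles of all coding genes. By summit, transcription factors (114-fold) and inhibitors (108-fold) lie highest and induced cytokines (2.73-fold) lowest, with the receptors at 33.2-fold between them; by any overlap the cytokines reach 26.8-fold and the co-receptors, at 15.2-fold, are lowest.

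Marker genes of the labelled cell type and of others were described by the same measure. Of all coding genes, 83% had an end summit, and the median was 43.5-fold by summit and 56.1-fold by any overlap. Every marker list had a summit median below 43.5-fold, and 4 of the 9 progenitor markers exceeded that value. By summit the markers therefore do not set the labelled type apart. Blood progenitor markers had a median of 37.9-fold, with 7 of 9 having a summit, and GATA2 and TAL1, the other two, lay under peaks of 54.9-fold and 105-fold with more distant summits. By any overlap the progenitor median was 87.4-fold, and 6 of 9 exceeded the median of coding genes. Pluripotency markers had 2.17-fold by summit (3 of 4, with SOX2 at 17.6-fold) and 10.003-fold by any overlap, with a 37.7-fold peak reaching into the window of LIN28A. Monocyte markers, from cells that use TLR2, TLR4 and TLR8, had 38.6-fold (5 of 5). Neutrophil markers had 21.6-fold (4 of 4), endothelial ones 28.4-fold (2 of 3), mesenchymal ones 16.5-fold (2 of 3), plasmacytoid dendritic cell markers 13.95-fold (4 of 4) and B cell markers 8.19-fold (2 of 4, MS4A1 with no peak by either measure). By any overlap the medians of these lists were 53.2-fold for monocytes, 21.6-fold for neutrophils, 33.4-fold for endothelium, 59.97-fold for mesenchyme, 13.95-fold for plasmacytoid dendritic cells and 14.03-fold for B cells. The mesenchyme value is that of PDGFRB, and the monocyte marker CSF1R, also on chromosome 5, had the same 59.97-fold. The mesenchyme and monocyte lists may therefore share this peak, which was not checked. COL3A1, another mesenchyme marker, had no peak by either measure. The part of any of these cell types in the receptor peaks was not tested.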

How the data were processed

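Per the labels' protocols, nuclei of 50000 cells were transposed for 45 minutes, and 75-nucleotide reads were sequenced in pairs. The submitters' processing notes list Trim Galore 0.6.5, Bowtie2 2.2.8, Picard 2.2.4 and 2 names of the human build, hg38 and GRCh38.p13, and the deposited peak names carry MACS 2.1.0 and GENCODE 36. Filters, read shifts for the transposase and the pooled libraries are not given in the sources used here. The authors' deposited list holds per peak a score, the fold enrichment (a linear ratio), and p and q on the −log10 scale. Fold and summit were used, and −log10 p ranked peaks for 1 alternative.

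From the deposited fold, a constant background pileup of 93.5 was recovered (fold = (pileup + 1) / (background + 1)), which gave whole pileups, to within 0.1, for 100% of the 243638 peaks below a pileup of 1000. Depth per library is unknown. Poisson intervals use this pileup and cover counting error only.

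Genes came from RefSeq (GRCh38.p14: 19974 coding genes on chromosomes 1 to 22 and X). End windows were 1 kb on each side of both ends. Starts and promoter sequences came from RefSeq's promoter table, which gives several starts for some genes. No test was run, since the design gives no replicates of these values, and percentiles are shares of coding genes or promoters with a lower value. The counting was tested on simulated data (400 of 400 genes recovered for each quantity). Members, lists and motifs were chosen with earlier results of these data known. Named genes were all members, their coding neighbours within 50 kb, and in each pathway list the 3 highest and up to 3 without a summit. Other genes and the comparison by receptor location and CpG content were chosen after values were seen. Python 3.11.15, numpy 2.4.6, pandas 2.3.3, scipy 1.17.1 and matplotlib 3.10.9 were used.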

Additional observations from a re-analysis of the deposited data

How the results depend on the processing

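No paired analysis was possible because the list holds no value for any library. The median end peak of the 10 receptors stayed below that of all coding genes under every alternative run. It was 24.5-fold with 0.5 kb windows, 35.9-fold with 2.5 kb windows, 37.6-fold with any overlap, 34.9-fold at the transcript start alone (7 genes, of which 6 had a summit), 24.5-fold with summits nearest to the gene itself (against 24.8-fold for all coding genes), 35.9-fold without TLR7 and TLR8 and 36.9-fold with neighbouring members counted once. The median of the pathway genes was 35.5-fold, 59.8-fold and 57.0-fold under the first 3 of these. All coding genes had 27.9-fold, 55.3-fold and 56.1-fold under the same settings. With summits nearest to the gene itself the pathway median was 44.5-fold, against 24.8-fold for all coding genes. At the transcript start alone it was 44.5-fold over 61 genes, below the 49.8-fold of all coding genes, whereas with both ends it lay above. The cause was not tested. With the peaks whose p lay at or below the median p alone, the median distal density of the receptors was 9.50 per 100 kb (against 6.66), as fewer peaks enter. It stayed above that of all coding genes in all 7 alternatives. Of the end values of single receptors under alternatives, 49 stayed within the counting interval and 8 moved. Of their distal counts, 24 stayed within 1.5 times and 26 moved, since distance and significance set how many peaks enter. Counting error limits little here, since the pool is deep, but the spread between libraries is unknown.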
